A study of Mus musculus with 16 samples.

Results

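The subject is a list of 38 mouse genes that act in DNA replication and mitosis, followed in fat and liver of mice given sunitinib or vehicle. The members were fixed by gene symbol, and the list was chosen with earlier results of these data known. All 38 were found in each of the 4 deposited tables, which together list 24934 gene symbols. They were arranged in 8 roles, from the replicative helicase to the machinery that ends mitosis.

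Liver and 3 fat depots (brown, epididymal white and inguinal white) of C57BL/6 mice aged 24 weeks were profiled by RNA sequencing. Each tissue has 2 libraries from mice given vehicle and 2 from mice given sunitinib (labelled Sutent), 16 in all. Sunitinib is an oral inhibitor of receptor tyrosine kinases, among them the VEGF, PDGF, KIT, FLT3 and CSF1 receptors. Its dose, route and duration, and the sex and diet of the mice, were not analysed here. The design text states 8 mice, 4 per treatment, and the labels do not tie a library to a mouse. The p-values therefore measure only the spread between these libraries.

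As background, a cell that commits to division first loads the MCM helicase onto origins and raises its supply of nucleotides. Cyclin A, cyclin B and CDK1 then drive it through late S phase and G2 into mitosis, where kinases, motors and the anaphase-promoting complex separate the chromosomes. Most of these transcripts are made only in part of the cycle and are scarce in resting cells. Adult adipocytes and hepatocytes seldom divide, so in fat the transcripts are usually sought in immune cells, progenitors and endothelium. E2F factors activate many S phase genes, and the DREAM and MuvB complexes act on G2 genes through the cell cycle homology region (CHR) and through CCAAT boxes bound by NF-Y.

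Promoter sequences of the members were searched for these elements. RefSeq windows on GRCm38.p6, from 250 bases before to 50 after a gene's start, matched 32 of the 38 members. They were searched on both strands for TTTGAA or TTTAAA (CHR), for CCAAT, and for TTTCCCGC, TTTCGCGC, TTTGCCGC or TTTGGCGC (E2F). The 150 bases before the start are printed below, 5′ to 3′ on the gene's strand, with the motif letters in capitals (a reverse complement, such as TTCAAA or ATTGG, marks the other strand, and a motif that crosses an end is cut). Top2a, Mki67, Cdk1 and Prc1 are examples of members that passed the test in epididymal fat and carry both the CHR letters and CCAAT. Ccnb2 and Cenpf meet the same description and are not printed. Tk1 is the member that passed in 2 tissues. Mcm5 and Mcm6 are helicase subunits with E2F letters, 2 of which overlap in each.
Top2a, chr11:99024190-99024339, minus strand: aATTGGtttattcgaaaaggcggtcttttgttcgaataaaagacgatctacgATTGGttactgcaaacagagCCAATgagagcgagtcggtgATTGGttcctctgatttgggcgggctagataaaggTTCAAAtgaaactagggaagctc
Mki67, chr7:135716380-135716529, minus strand: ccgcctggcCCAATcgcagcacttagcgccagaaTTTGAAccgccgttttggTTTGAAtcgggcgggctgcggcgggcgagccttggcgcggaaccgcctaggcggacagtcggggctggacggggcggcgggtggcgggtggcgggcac
Cdk1, chr10:69352913-69353062, minus strand: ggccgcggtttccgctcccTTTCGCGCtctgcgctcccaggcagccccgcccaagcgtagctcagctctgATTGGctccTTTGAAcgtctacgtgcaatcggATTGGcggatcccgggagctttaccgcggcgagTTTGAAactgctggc
Prc1, chr7:80294326-80294475, plus strand: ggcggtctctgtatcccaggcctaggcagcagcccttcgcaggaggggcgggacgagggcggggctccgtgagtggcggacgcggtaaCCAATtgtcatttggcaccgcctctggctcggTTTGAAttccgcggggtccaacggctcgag
Tk1, chr11:117826015-117826164, minus strand: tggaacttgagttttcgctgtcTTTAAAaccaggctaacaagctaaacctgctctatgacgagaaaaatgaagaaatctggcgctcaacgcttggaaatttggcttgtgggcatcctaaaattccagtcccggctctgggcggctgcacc
Mcm5, chr8:75109359-75109508, plus strand: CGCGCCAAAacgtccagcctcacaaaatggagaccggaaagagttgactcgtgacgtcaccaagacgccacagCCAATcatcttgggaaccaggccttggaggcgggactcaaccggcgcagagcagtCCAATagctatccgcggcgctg
Mcm6, chr1:128359706-128359855, minus strand: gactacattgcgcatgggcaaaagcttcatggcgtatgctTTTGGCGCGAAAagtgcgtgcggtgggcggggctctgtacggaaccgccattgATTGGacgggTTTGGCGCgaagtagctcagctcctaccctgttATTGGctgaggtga

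The CHR letters were present in 19 of 22 windows of G2 and mitosis members and in 4 of 10 windows of replication members. Over all 27025 genes with a window they were present in 30.6%. CCAAT was found in 8 of 10 replication and 18 of 22 G2 and mitosis windows, 26 of 32 in all (81.2%), against 41.1% of all genes. Both motifs together were found in 20 members (62.5%), against 13.4% of all genes. The E2F letters were present in 4 of the 10 replication members and in 1 of the 22 G2 and mitosis members, against 2.6% of all genes. These are counts of letters in a window, with no test, and the windows were not matched for base composition.

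Values below are the authors' regularized log2 expression values, which pull a gene's libraries towards its mean, most strongly when the gene is scarce, so that small differences are understated. The 4 tables were normalized separately. Within a tissue, limma compared the sunitinib libraries with the vehicle libraries, over all genes with a mean of at least 3, with a Benjamini-Hochberg adjusted p under 0.05 as the threshold. All 38 members passed that filter in epididymal and in inguinal fat, 25 in brown fat and 23 in liver. The median vehicle level of the members was 6.71 in epididymal fat, 6.75 in inguinal fat, 3.61 in brown fat and 3.49 in liver, set across separately normalized tables. A total depth cannot be read from these values. With 2 libraries against 2, an exact permutation test of a single value cannot go below p = 0.333.

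One library stands apart and bears on the results. The second sunitinib library of inguinal fat deviated from the median of the other 3 with an SD of 0.64 over all genes tested, against 0.27 to 0.33 for those 3. In it, 1078 genes lay more than 1 log2 unit from that median, against 107 to 340 in the others. Its T cell markers averaged 8.59, against 4.43 to 4.96 in the other 3 libraries, and its B cell markers 10.7, against 5.59 to 7.55. Inguinal counts are given with and without it.

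**Figure D1:**
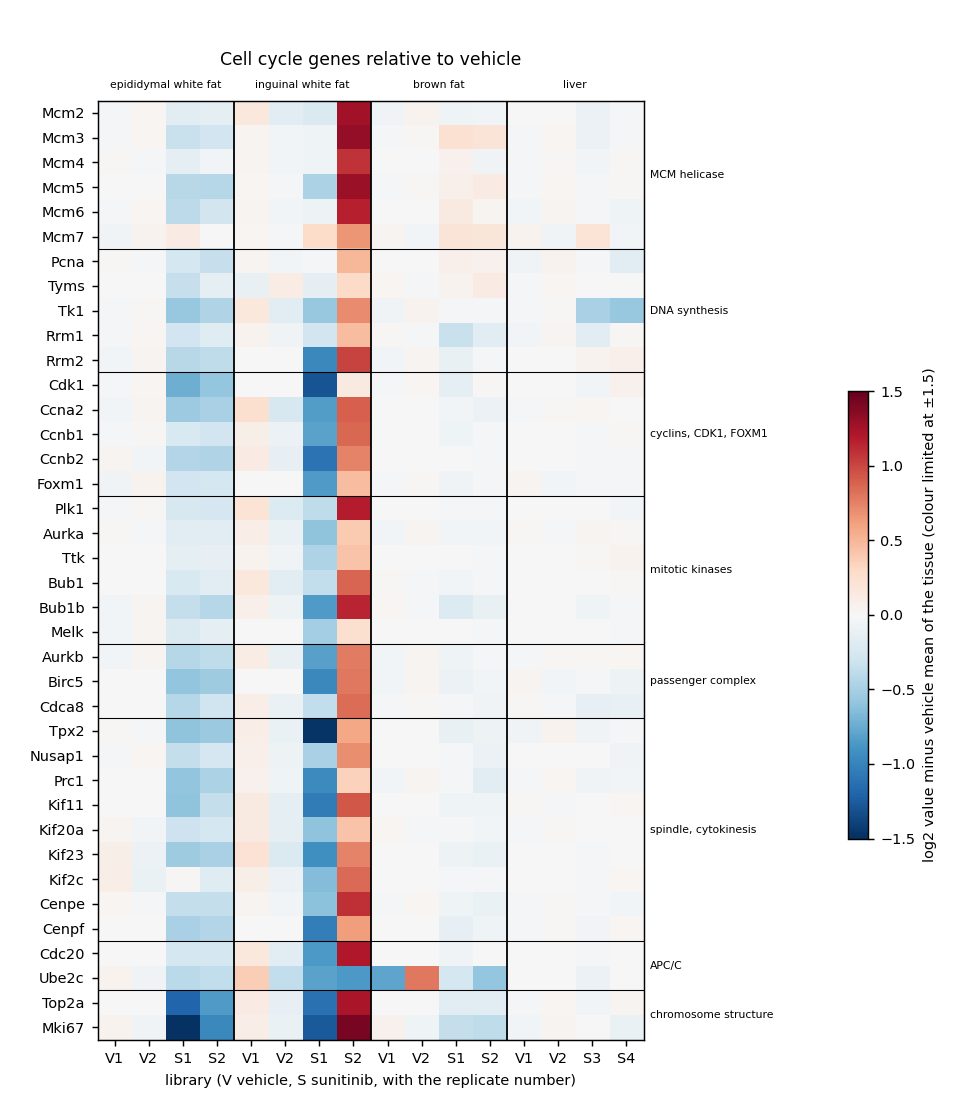
Heat map of the 38 members (rows, by role) in the 16 libraries (columns, by tissue), as the log2 value minus the vehicle mean of the tissue. Blue is below vehicle and red above. Epididymal fat shows both sunitinib libraries below both vehicle libraries in 36 of 38 members. In inguinal fat sunitinib replicate 1 lies below and replicate 2 above both vehicle libraries in 35 of 38. Brown fat and liver are mostly pale.

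In epididymal white fat, members of 5 of the 8 roles fell after sunitinib, and no member of the other 3 passed (the MCM helicase, the mitotic kinases and the anaphase-promoting complex). Adjusted over all genes tested, 10 of 38 members fell and 0 rose, where 2.06% of all genes were called lower and 0.277% higher. At an unadjusted p under 0.05, 34 members were lower, as were 11.9% of all genes tested. The median difference over the 38 was -0.34 on the log2 scale, against 0.0089 over all genes tested, and 37 of the 38 differences were negative. Both sunitinib libraries lay below both vehicle libraries in 36 members, as they did in 26.8% of all genes tested. In whole tissue, fewer dividing cells and less of these RNAs per cell cannot be told apart.

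The differences of largest size were those of Mki67 and Top2a. Mki67 encodes Ki-67, the chromosome surfactant used as a marker of cycling cells. Vehicle libraries read 9.06 and 8.95, and sunitinib libraries 7.53 and 8.03. Mki67 fell by 1.22 ± 0.18 (SE, 2 libraries per group, limma adjusted p = 0.0484). Top2a, the topoisomerase that untangles sister chromatids, read 8.33 and 8.32 with vehicle and 7.13 and 7.47 with sunitinib. Top2a fell by 1.02 ± 0.12 (limma adjusted p = 0.0342). For both genes the groups were far apart, and the second sunitinib library was the nearer to vehicle.

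Among cyclins, their kinase and FOXM1, 3 of 5 members fell and the median difference was -0.44. Cdk1, the kinase that starts mitosis, had values of 7.23 and 7.28 with vehicle and 6.52 and 6.68 with sunitinib, and it fell by 0.66 ± 0.08 (limma adjusted p = 0.0377). Ccna2 encodes cyclin A2, the partner of CDK2 and CDK1 in S phase and G2. Its values were 6.45 and 6.54 against 5.96 and 6.01, and Ccna2 fell by 0.51 ± 0.07 (limma adjusted p = 0.0423). Ccnb2, a mitotic cyclin, was at 6.20 and 6.11 against 5.72 and 5.71 and fell by 0.44 ± 0.06 (limma adjusted p = 0.0491). In each of these 3 genes the sunitinib pair lay below the vehicle pair. Ccnb1, the other B-type cyclin, differed by -0.26 (limma adjusted p = 0.12), and the transcription factor gene Foxm1 differed by -0.27 (limma adjusted p = 0.122).

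Genes of the spindle, the kinetochore and cytokinesis gave 3 of 9 members called lower, with a median of -0.46. Tpx2, which activates Aurora A and nucleates spindle microtubules, stood at 6.93 and 6.90 with vehicle and at 6.31 and 6.36 with sunitinib. Tpx2 fell by 0.58 ± 0.07 (limma adjusted p = 0.0312). Prc1 bundles microtubules at the spindle midzone. Its levels were 6.77 and 6.78 against 6.18 and 6.30, and Prc1 fell by 0.54 ± 0.07 (limma adjusted p = 0.0432). Cenpf, a kinetochore protein, read 6.26 and 6.24 against 5.76 and 5.81 and fell by 0.46 ± 0.06 (limma adjusted p = 0.0403). The other 6, the kinesins Kif11, Kif20a, Kif23 and Kif2c with Nusap1 and Cenpe, did not pass. Kif23, a motor of cytokinesis, came nearest at -0.51 (limma adjusted p = 0.057). Kif2c, a microtubule depolymerase, was the member of this role whose groups overlapped, with 5.47 and 5.27 against 5.39 and 5.18.

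The chromosomal passenger complex corrects faulty attachments of chromosomes to the spindle. Of its 3 members, Birc5, which encodes survivin, passed the test. It stood at 6.38 and 6.38 with vehicle and at 5.79 and 5.85 with sunitinib, and Birc5 fell by 0.56 ± 0.06, with the smallest adjusted p of all members (limma, 0.0297). Its partners did not pass: Aurkb, the Aurora B kinase gene, differed by -0.40 (limma adjusted p = 0.0594) and Cdca8, encoding borealin, by -0.36 (limma adjusted p = 0.0852). None of the 6 mitotic kinase and checkpoint genes passed, and their median was -0.19. All 6 were lower at an unadjusted p under 0.05. The one with the smallest p was Bub1b, the checkpoint gene for BubR1, at 7.06 and 7.14 with vehicle and 6.74 and 6.67 with sunitinib (limma adjusted p = 0.0733). Of the anaphase-promoting complex pair, the activator gene Cdc20 differed by -0.27 (limma adjusted p = 0.0815) and the ubiquitin-conjugating enzyme gene Ube2c by -0.39 (limma adjusted p = 0.0756). Ube2c was at 7.12 and 7.01 with vehicle and 6.66 and 6.69 with sunitinib.

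DNA synthesis genes gave 1 call among 5 members, with a median of -0.30. Tk1, thymidine kinase of the nucleotide salvage route, was at 7.06 and 7.10 with vehicle and 6.50 and 6.62 with sunitinib. Tk1 fell by 0.51 ± 0.08 (limma adjusted p = 0.0492). Rrm2, the cell cycle regulated subunit of ribonucleotide reductase, differed by -0.40 (limma adjusted p = 0.0625). Pcna, the polymerase clamp, differed by -0.30 (limma adjusted p = 0.0886), and all 5 members of this role had both sunitinib libraries below both vehicle libraries.

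The MCM helicase opens DNA ahead of the replication fork, and none of its 6 subunit genes passed. Their median was -0.23 and their differences ran from -0.42 to 0.07. Mcm5 had values of 7.75 and 7.76 with vehicle and 7.34 and 7.33 with sunitinib, and its difference of -0.42 lay just beyond the threshold (limma adjusted p = 0.0533). Mcm7 was the only member of the whole list with a positive difference, 0.07, with 8.75 and 8.84 in vehicle and 8.92 and 8.80 in sunitinib. Its groups overlapped, while those of the other 5 subunits did not.

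**Figure D2:**
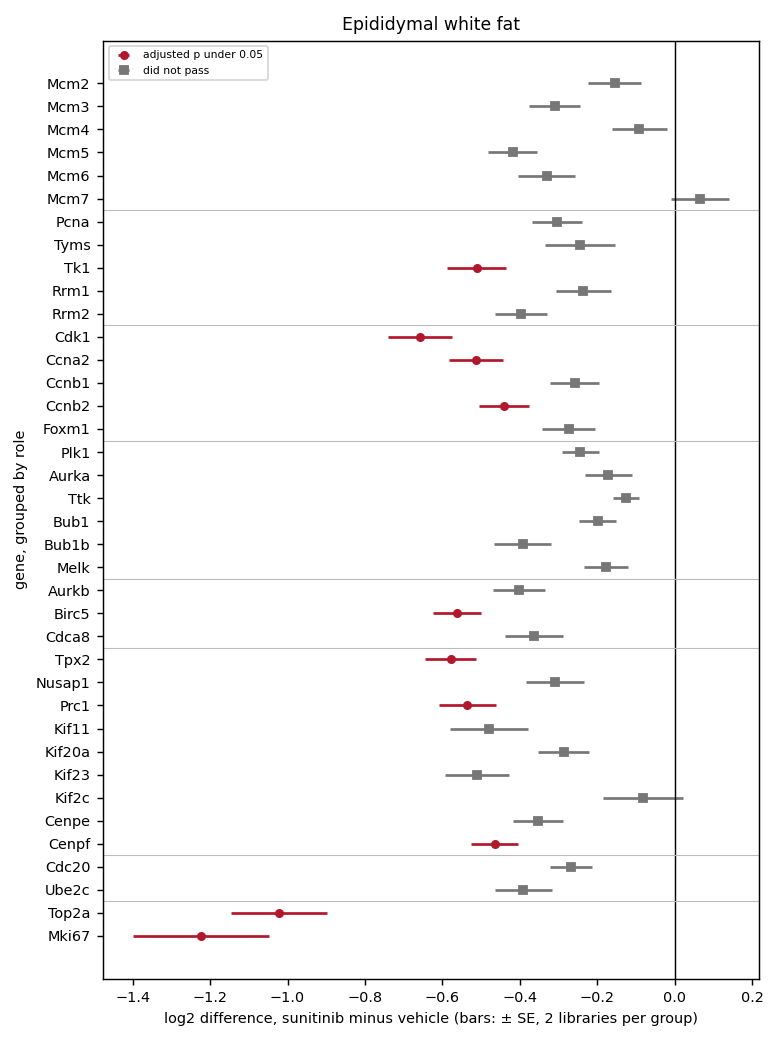
Sunitinib minus vehicle in epididymal white fat for each member (log2 difference on the horizontal axis, bars ± SE from limma, 2 libraries per group), grouped by role. Red circles are the 10 members with an adjusted p under 0.05 and grey squares the other 28. Every point except Mcm7 lies left of 0, and Top2a and Mki67 lie farthest left.

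These calls rest on both vehicle libraries. A fit without 1 of them takes its spread from the sunitinib pair. That pair differed with an SD of 0.262 over all genes tested, against 0.148 for the vehicle pair. With vehicle replicate 1 left out, 0 of the 38 members passed, and likewise with replicate 2 left out (limma adjusted p from 0.24 to 0.332 for the 10). In both of these fits 0% of all genes were called lower. In 1 fit over all 4 tissues, which pools the spread of every tissue, 0 members passed while 2.43% of all genes were called lower. The causes were not tested.

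Markers of other cells moved in the same libraries. All 10 macrophage markers found in the epididymal table were lower after sunitinib and 7 passed the test. Their mean was 10.94 and 10.95 with vehicle and 9.96 and 9.95 with sunitinib, and none of them had a mean under 3. For example, Trem2, a receptor of lipid-associated macrophages, fell by 1.68 and Itgax, the integrin CD11c, by 1.53 (limma adjusted p = 0.0121 for each). All 6 epithelial markers were higher with sunitinib and 1 passed, with list means of 6.88 and 7.70 against 8.79 and 8.78. Adipocyte markers averaged 15.69 and 15.50 against 15.55 and 15.46, and T cell markers 4.08 and 4.09 against 4.11 and 4.14. Endothelial markers averaged 9.67 and 9.97 against 9.49 and 9.59, with 6 of 6 differences negative and 0 called; Cdh5, which encodes VE-cadherin, differed by -0.70 (limma adjusted p = 0.12). Fibroblast and progenitor markers averaged 10.83 and 10.90 against 10.65 and 10.81, with 3 of 7 negative and 0 called. Of these, the collagen gene Col3a1 differed by -0.71 (limma adjusted p = 0.0599) and the progenitor marker Dpp4 by 0.39 (limma adjusted p = 0.193). The part of any of these cells in the lower cell cycle transcripts was not tested.

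The other genes of the cycle, 91 in 6 lists, gave no call in epididymal fat, either lower or higher. Of the 90 in that table, 43 were lower at an unadjusted p under 0.05 (11.9% of all genes tested) and 64 had both sunitinib libraries below both vehicle libraries (26.8% of all genes tested). The other G2 and mitosis genes had a median of -0.23, with 29 of 30 negative, and the chromatin and condensin genes of dividing cells a median of -0.19, with 12 of 12 negative. Within these, Aspm, a spindle pole gene, was at 5.32 and 5.34 with vehicle and 4.95 and 5.02 with sunitinib, a difference of -0.35 (limma adjusted p = 0.0506), and Smc2, a condensin subunit gene, was at 7.61 and 7.73 against 7.28 and 7.35, a difference of -0.35 (limma adjusted p = 0.0998). The DNA synthesis and MCM helicase members, which act in S phase, had medians of -0.30 and -0.23. Among the 6 lists of other genes, those of earlier phases were closer to 0. Medians were -0.09 for origin licensing and fork assembly, -0.06 for polymerases and clamp loading, -0.07 for G1 cyclins and the E2F and RB families, and -0.01 for inhibitors of the cyclin-dependent kinases.

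Single genes in those earlier lists nevertheless differed in both directions without passing. Ccnd2, the gene of the G1 cyclin D2, was at 12.70 and 12.57 with vehicle and 12.04 and 12.15 with sunitinib, a difference of -0.54 (limma adjusted p = 0.0548). Ccnd1, for cyclin D1, was at 8.62 and 8.95 against 9.28 and 9.33, a difference of 0.52 (limma adjusted p = 0.112). Cdkn1a, which encodes the inhibitor p21, was at 11.26 and 10.99 against 10.52 and 10.55, a difference of -0.59 (limma adjusted p = 0.0672). The G1 cyclin genes D1 and D2 thus lay on opposite sides of 0. Mcm10, a fork assembly factor gene, was at 5.42 and 5.45 against 5.27 and 5.24, a difference of -0.18 (limma adjusted p = 0.156). Lig1, the replicative DNA ligase gene, was at 7.57 and 7.69 against 7.23 and 7.42, a difference of -0.30 (limma adjusted p = 0.181).

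In inguinal white fat the 2 sunitinib libraries departed from vehicle in opposite directions. No member passed, lower or higher, and 0% of all genes tested were called in either direction. At an unadjusted p under 0.05, 1 member was lower and 1 higher, against 8.8% and 3.88% of all genes tested. Sunitinib replicate 1 lay below both vehicle libraries in 36 of 38 members and replicate 2 above both in 37 of 38. Both held at once for 35 members, a pattern shown by 11.3% of all genes tested. Both sunitinib libraries lay below both vehicle libraries in 1 member, Ube2c, against 26.4% of all genes tested. The median difference from the vehicle mean was -0.63 in replicate 1 and 0.79 in replicate 2.

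Role medians against the vehicle mean are given as a description, with no test between roles. In the MCM helicase they were -0.07 for replicate 1 and 1.21 for replicate 2, with single values in replicate 1 from -0.47 for Mcm5 to 0.28 for Mcm7. Mcm3 read 7.56 and 7.49 with vehicle, then 7.46 and 8.85 with sunitinib. For the cyclin group the medians were -0.85 and 0.75, and for the spindle group -0.92 and 0.69. Cdk1 showed mainly the lower side, with 7.45 and 7.47 in vehicle and 6.17 and 7.60 in sunitinib. Mki67 had 9.14 and 8.94 in vehicle against 7.78 and 10.5. Its vehicle pair thus sat between the sunitinib libraries, far from either.

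Plk1, the Polo-like kinase gene, was at 5.71 and 5.31 against 5.14 and 6.69. Prc1 was at 7.02 and 6.89 against 6.00 and 7.30, and Cdca8 at 6.30 and 6.09 against 5.83 and 7.03. In these 3 the vehicle pair again lay between the sunitinib libraries.

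Ube2c, Mcm7 and Pcna broke the pattern. Pcna was at 9.28 and 9.20 with vehicle and at 9.22 and 9.74 with sunitinib, so that replicate 1 fell within the vehicle pair. Ube2c was below vehicle in both sunitinib libraries, with 9.13 and 8.40 against 7.97 and 7.91, a difference of -0.83 ± 0.27 (limma adjusted p = 0.376). Mcm7 was above vehicle in both, with 8.91 and 8.86 against 9.16 and 9.55, a difference of 0.47 ± 0.16 (limma adjusted p = 0.385). Tk1, with 7.31 and 6.99 against 6.59 and 7.86, followed the majority.

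**Figure D3:**
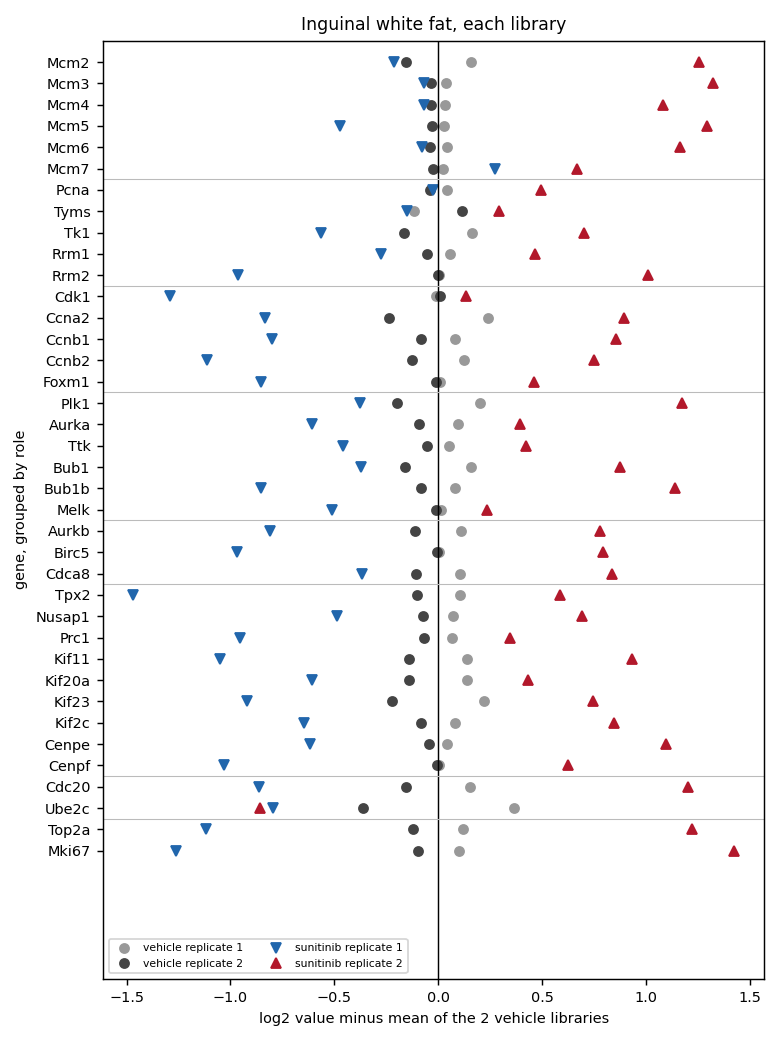
Each inguinal white fat library minus the mean of the 2 vehicle libraries (log2, horizontal axis) for the 38 members, grouped by role. Circles are vehicle, blue triangles sunitinib replicate 1 and red triangles sunitinib replicate 2. Blue lies left and red right of the vehicle circles in 35 members, Ube2c has both triangles on the left and Mcm7 both on the right.

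Leaving out either sunitinib library turned the inguinal result, with the lone library assumed to vary like the vehicle pair. Without replicate 2, the library that stands apart, 15 of 38 members were called lower and 0 higher, against 3.09% and 1.82% of all genes tested in that fit. Mki67 was then lower by -1.26 ± 0.13 (limma adjusted p = 0.00754), Tpx2 by -1.47 ± 0.17 (limma adjusted p = 0.00946) and Top2a by -1.12 ± 0.15 (limma adjusted p = 0.0152). None of the 6 MCM genes was among those calls; the smallest adjusted p of the 6 was that of Mcm5 (limma, 0.109). Without replicate 1, 29 of 38 were called higher and 0 lower, where 16% of all genes were called higher and 11.5% lower, with Mki67 at 1.43 ± 0.12 (limma adjusted p = 0.000326) and Mcm3 at 1.32 ± 0.13 (limma adjusted p = 0.000662).

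Lymphocyte markers separated the same inguinal libraries. B cell markers averaged 5.59 and 6.53 with vehicle, 7.55 in sunitinib replicate 1 and 10.7 in replicate 2. T cell markers averaged 4.43 and 4.52, then 4.96 and 8.59, and neutrophil markers 4.15 and 4.01, then 4.57 and 6.21. Macrophage markers averaged 10.1 and 9.72 with vehicle and 9.32 and 9.49 with sunitinib, with 10 of 10 differences negative and 0 called. Adipocyte markers averaged 15.5 and 15.6, then 15.6 and 15.1. The part of these cells in the divergence of the members was not tested.

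**Figure D4:**
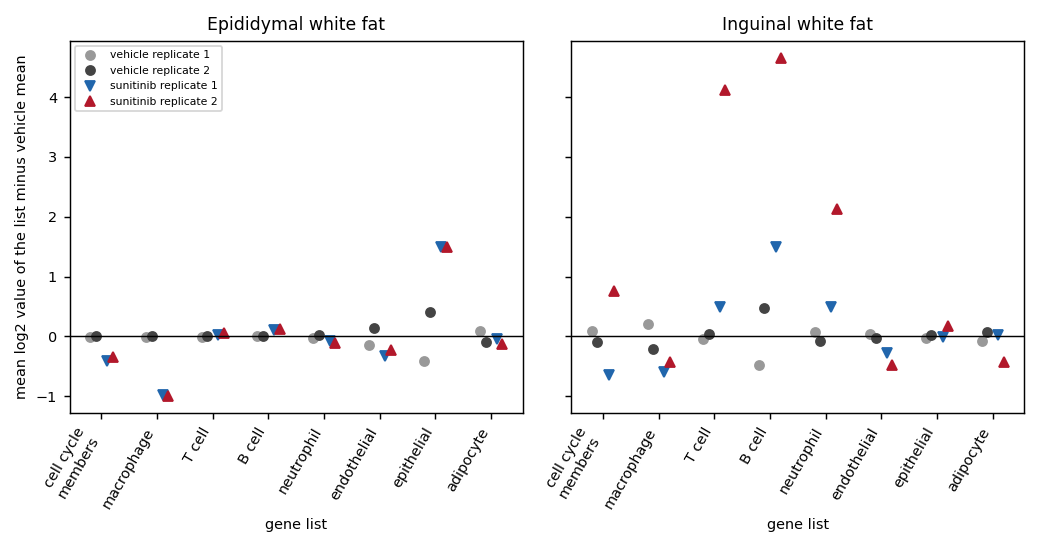
Mean log2 value of the 38 members and of 7 marker lists in each library, minus the vehicle mean, in epididymal (left) and inguinal (right) white fat. In epididymal fat the members and the macrophage markers lie below 0 in both sunitinib libraries. In inguinal fat sunitinib replicate 2 is high for the members and for T cell, B cell and neutrophil markers, and sunitinib replicate 1 is below vehicle for the members and the macrophage markers.

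Across the 38 members, differences in epididymal fat were compared with those of other tissues as a description. Pearson's r was 0.69 (Spearman's rho 0.73) with inguinal sunitinib replicate 1 and -0.18 (rho -0.10) with inguinal replicate 2. It was 0.53 (rho 0.54) with brown fat and 0.18 (rho 0.20) with liver. Members share the shrinkage of the tables and their abundance, and genes are not independent replicates.

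In brown fat no member was called lower or higher, and 0% of all genes tested were called in either direction. At an unadjusted p under 0.05, 6 of 25 tested members were lower and 2 higher, against 6.98% and 9.13% of all genes tested. The median over all 38 was -0.04, and it turned to 0.037 over members with a mean of at least 5. Under the filter lay 13 members, among them all 3 of the passenger complex. Mki67 had 5.29 and 5.17 with vehicle and 4.87 and 4.85 with sunitinib, a difference of -0.37 ± 0.06 (limma adjusted p = 0.228). Top2a differed by -0.16 (limma adjusted p = 0.233), with groups that did not overlap. Both sunitinib libraries lay below both vehicle libraries in 18 of the 38, and in 9 of the 25 tested members (36%), against 24% of all genes tested. Bub1b was at 4.63 and 4.57 with vehicle and 4.40 and 4.49 with sunitinib, Tpx2 at 3.24 and 3.25 against 3.14 and 3.18, and Ccna2 at 3.67 and 3.67 against 3.63 and 3.58.

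Other markers moved in the same brown fat libraries. All 6 endothelial differences were positive and 0 were called (median difference 0.36, list means 9.84 and 9.54 against 10.13 and 9.98). Over all genes tested, 51.6% of differences were negative. All 10 macrophage differences were negative and 0 were called (median -0.15, list means 6.07 and 6.22 against 5.92 and 5.97). Their part in the member values was not tested.

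The helicase genes ran the other way in brown fat, with 5 of 6 differences positive and 0 called. Mcm3 stood at 5.79 and 5.83 with vehicle and at 6.04 and 6.00 with sunitinib, a difference of 0.21 ± 0.06 (limma adjusted p = 0.244). Rrm1, the large subunit gene of ribonucleotide reductase, was at 8.19 and 8.16 against 7.85 and 8.01, a difference of -0.25 ± 0.08 (limma adjusted p = 0.254). Ube2c varied most between vehicle libraries, at 5.411 and 6.999 against 5.94 and 5.63. Its difference of -0.42 (limma adjusted p = 0.686) became -1.22 without vehicle replicate 1 and 0.37 without vehicle replicate 2, with limma adjusted p = 3.45e-08 and 0.0474. Each of those fits has 1 vehicle library and takes its spread from the sunitinib pair, which differed with an SD of 0.119 over all genes tested, against 0.300 for the vehicle pair. In them, 6.29% of all genes were called lower and 2.83% higher, respectively.

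In liver 1 member fell, Tk1, and 0 rose, where 0.0726% of all genes were called lower and 0.121% higher. Tk1 was at 9.29 and 9.33 with vehicle and at 8.82 and 8.74 with sunitinib, so that the groups lay apart by more than their spread. Tk1 fell by 0.53 ± 0.07 (limma adjusted p = 0.0289). The call was lost with no filter (limma adjusted p = 0.0615), after quantile normalization (0.0636), with no intensity trend (0.0916) and in 1 fit over the 4 tissues (1.0). The remaining members stayed near 0, from -0.12 for Cdca8 to 0.08 for Mcm7, with a median over all 38 of -0.01. Both sunitinib libraries lay below both vehicle libraries in 9 of the 38, and in 5 of the 23 tested members (21.7%), against 19.2% of all genes tested. The other 15 members were under the filter.

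Cdca8 was at 4.34 and 4.31 with vehicle and 4.21 and 4.22 with sunitinib in liver, Pcna at 8.04 and 8.15 against 8.07 and 7.94, and Prc1 at 3.15 and 3.20 against 3.12 and 3.14. Mki67 was at 4.55 and 4.63 against 4.58 and 4.49, Mcm3 at 5.10 and 5.15 against 5.04 and 5.10, and Ube2c at 3.12 and 3.12 against 3.03 and 3.13. Aurka was at 5.40 and 5.37 against 5.42 and 5.40, and Cdk1 at 4.36 and 4.34 against 4.31 and 4.42. None of these 8 passed. In the same libraries all 5 neutrophil markers were higher with sunitinib and 3 passed (smallest limma adjusted p = 0.0136), with list means of 3.30 and 3.29 against 3.63 and 3.53. Their part in the lower Tk1 was not tested.

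**Figure D5:**
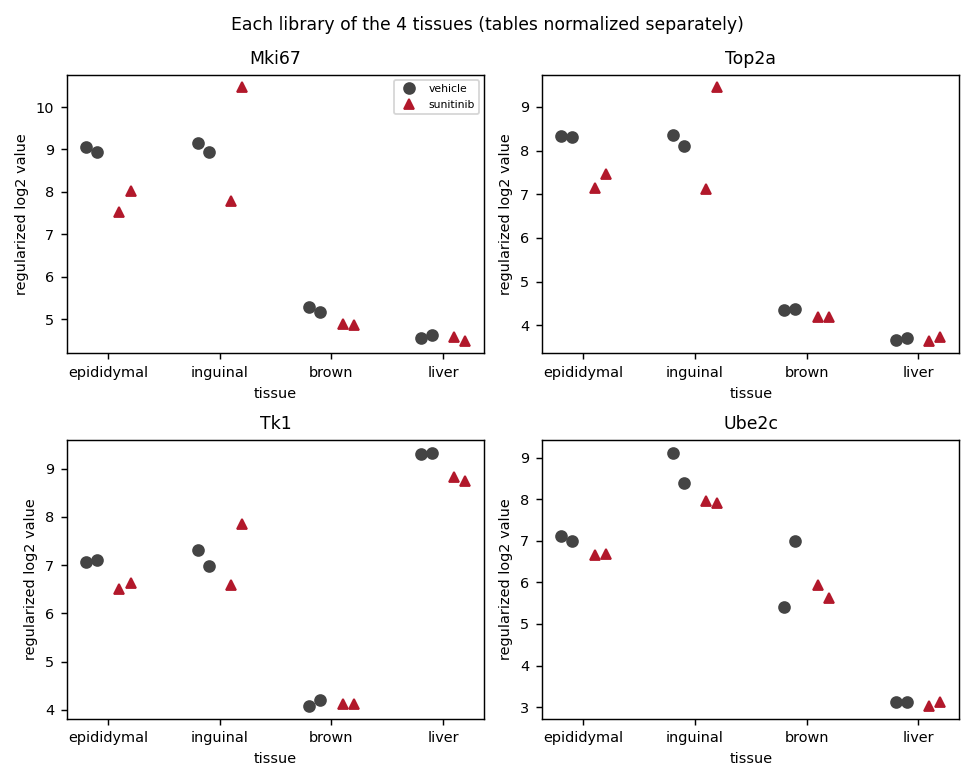
Regularized log2 values of Mki67, Top2a, Tk1 and Ube2c in every library of the 4 tissues (circles vehicle, triangles sunitinib; tables normalized separately). Mki67 and Top2a lie below vehicle in epididymal fat and on both sides of it in inguinal fat, Tk1 is lower in epididymal fat and liver, and the vehicle values of Ube2c in brown fat are 5.411 and 6.999.

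The difference between tissues was tested directly as an interaction. Each fit used 1 spread per gene for both tissues, although the spread of the libraries differed. Over all genes tested, the sunitinib pair differed with an SD of 0.262 in epididymal fat, 0.119 in brown fat and 0.123 in liver. For the vehicle pair the SD was 0.148, 0.300 and 0.122. Between epididymal and brown fat, 8 of 25 members passed, each more negative in epididymal fat, where 3.64% of all genes tested passed in either direction. They were Tpx2, Mcm5, Ccna2, Mcm3, Top2a, Cdk1, Tk1 and Kif23. Of these, Mcm3, Mcm5 and Kif23 passed in neither tissue alone. For Mcm3 the effects had opposite signs, -0.31 in epididymal and 0.21 in brown fat, a gap of -0.52 ± 0.08 (limma adjusted p = 0.0208). Mki67 did not pass at -0.85 ± 0.21 (limma adjusted p = 0.0683). With brown fat sunitinib replicate 1 or 2 left out, 0 members passed, where 0.632% and 0.948% of all genes did.

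Between epididymal fat and liver, 11 of 23 members passed, again each more negative in epididymal fat, against 3.95% of all genes tested. They were Cenpf, Top2a, Birc5, Cdk1, Prc1, Mki67, Mcm5, Rrm2, Kif20a, Kif11 and Ube2c. Of these, Mcm5, Rrm2, Kif20a, Kif11 and Ube2c passed in neither tissue alone. Ube2c, Prc1, Cenpf, Kif20a, Kif11 and Top2a had liver means of only 3.10 to 3.69. The members' median vehicle level was 3.49 in liver and 3.61 in brown fat, against 6.71 in epididymal fat, across separately normalized tables. Scarce genes are pulled most strongly to their mean, and the part of this in the gaps to both tissues was not tested. For Top2a the gap was -1.02 ± 0.14 (limma adjusted p = 0.00563). Tk1 was not among them, with effects of -0.51 and -0.53 and a gap of 0.02 ± 0.10 (limma adjusted p = 0.949). With vehicle replicate 1, vehicle replicate 2 or sunitinib replicate 3 of liver left out, 5 members passed, where 1.34%, 1.7% and 1.33% of all genes did. Without liver sunitinib replicate 4, 6 passed, against 2.26%.

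Comparisons that involve inguinal fat or leave out epididymal fat gave no member call. Between epididymal and inguinal fat 0 of 38 passed, with 0% of all genes tested, although 37 of the 38 gaps were negative. Inguinal against brown fat gave 0 of 25 (0.0314% of all genes), inguinal fat against liver 0 of 23 (0.043%) and brown fat against liver 0 of 20 (0%). At an unadjusted p under 0.05, these comparisons gave 0 members between epididymal and inguinal fat (10.1% of all genes), 0 between inguinal and brown fat (13.6%) and 1 between inguinal fat and liver (13.7%). Between brown fat and liver they gave 2 in each direction (14.4%). Brown fat and liver effects for Tk1, -0.03 and -0.53, differed by 0.50 ± 0.10 (limma adjusted p = 0.132).

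Without inguinal sunitinib replicate 2, 0 of 38 members passed against epididymal fat (0.118% of all genes). Against brown fat 10 of 25 then passed (3.22%) and against liver 12 of 23 (7.36%), each more negative in inguinal fat. Without inguinal sunitinib replicate 1, 36 of 38 passed against epididymal fat (21.3% of all genes), 19 of 25 against brown fat (19%) and 18 of 23 against liver (26.2%), each more positive in inguinal fat.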

How the data were processed

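Total RNA of 16 libraries was sequenced. The authors deposited 1 table per tissue of log2 values (DESeq2 regularized log transform, per the table names). The submitters' processing notes name bcl2fastq 2.17.1.14, TopHat2 2.1.1, bedtools, DESeq2 and mm9. No source used here gives the annotation, counting settings or strand, so reads of overlapping genes could not be told apart, and depth is unknown.

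Groups came from the labels. R 4.3.3 with limma 3.58.1 was run on each tissue's genes whose 4 libraries averaged at least 3 (13044 in brown, 15526 in epididymal and 14916 in inguinal fat, 12394 in liver), with an intensity trend and Benjamini-Hochberg adjustment. Tissue effects were compared as interaction contrasts over 8 libraries. The code was tested on simulated data. Summaries used Python 3.11.15 with pandas 2.3.3. Promoter windows came from RefSeq (GRCm38.p6), apart from the deposited values.

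The members, roles, lists and tests were chosen with earlier results of these data known. Apart from Kif2c, members named with a value in every library are those that passed in any tissue, the 3 of largest difference per tissue and the smallest p of each role and tissue. Other members, Kif2c among them, are named to account for their role. Of the other cycle genes, the smallest p of each list in epididymal fat is named. Ccnd1 was added outside that rule. Alternatives covered the filter, normalization, trend, robust fit, a joint fit, the replicate block and each library left out. No 2 libraries of a table were identical.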

Additional observations from a re-analysis of the deposited data

Results flagged for a closer look

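Sunitinib effects that differed between tissues by the interaction test of limma (adjusted p under 0.05) are given as the epididymal difference minus that of the other tissue, on the log2 scale. Against brown fat the gaps were -0.45 for Ccna2, -0.60 for Cdk1, -0.42 for Kif23, -0.52 for Mcm3, -0.52 for Mcm5, -0.49 for Tk1, -0.86 for Top2a and -0.49 for Tpx2. Against liver they were -0.52 for Birc5, -0.67 for Cdk1, -0.46 for Cenpf, -0.49 for Kif11, -0.29 for Kif20a, -0.42 for Mcm5, -1.17 for Mki67, -0.49 for Prc1, -0.46 for Rrm2, -1.02 for Top2a and -0.35 for Ube2c. Cdk1, Mcm5 and Top2a appear in both comparisons, which share the epididymal libraries. The members were mostly scarcer in brown fat and liver, where values are pulled more strongly to the mean. Groups of 2 libraries are too small for a test of single outlying libraries.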

How the results depend on the processing

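Counts of members called depended on the libraries and on the pooled spread. The counts in this paragraph are given without the share of all genes called in the same fit. A changed count is therefore not a result about the members. With no filter, 5 members were lower in epididymal fat (10 as reported), 0 in liver (1) and 18 passed between epididymal fat and liver (11). With 1 fit over the 4 tissues, 0 were lower in epididymal fat and in liver, 1 was higher in inguinal fat, and 0 passed between epididymal fat and either brown fat or liver. At a mean of at least 5, 1 member passed in each of these interactions, with 10 and 11 members tested. Between epididymal and brown fat 13 passed after quantile normalization and 14 in a robust fit (8). In liver 0 were lower after quantile normalization and with no trend. The member median became 0.037 in brown fat and -0.037 in liver at a mean of at least 5, and -0.41 in epididymal fat after quantile normalization. The causes were not tested.

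With single libraries left out, members lower ranged from 0 to 2 in brown fat, 0 to 13 in epididymal fat and 0 to 15 in inguinal fat, and members higher from 0 to 1 in brown fat and 0 to 29 in inguinal fat. Members with a tissue difference ranged from 0 to 10 (epididymal minus brown fat), 0 to 36 (epididymal minus inguinal fat), 5 to 13 (epididymal fat minus liver), 0 to 19 (inguinal minus brown fat), 0 to 18 (inguinal fat minus liver) and 0 to 1 (brown fat minus liver). These ranges of counts are given without the share of all genes called in the same fits, which also changed with the library left out. The ranges are therefore not a result about the members. The brown fat median ranged from -0.0612 to -0.0225. Mki67 in inguinal fat ranged from -1.26 to 1.43 and Ube2c in brown fat from -1.22 to 0.37, each called on both sides. Tk1 in epididymal fat did not pass without sunitinib replicate 1 (limma adjusted p = 0.0528). Mki67 in epididymal fat did not pass with no filter (0.0716), no trend (0.0595) or a robust fit (0.0614). Ccnb2 did not pass after quantile normalization (0.0524).

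With the replicate block, 11 members were lower in epididymal fat and 5 passed between epididymal and brown fat (8). The share of all genes called in those fits is not set beside these counts, so they are not a result about the members. The labels give the replicate numbers no meaning. Deviations of same-numbered libraries correlated with r = 0.22 in epididymal, 0.11 in inguinal and -0.26 in brown fat. These values cannot tell whether same-numbered libraries share a mouse or a preparation. Crossing the numbers in brown fat, an alternative chosen after seeing the data, gave 0 calls. No paired analysis was possible in liver because its sunitinib libraries are numbered 3 and 4. Of 518 alternative values for named genes, 9 changed sign with neither value called.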
